A study of Homo sapiens with 4 samples.

Results

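The genes described here encode the secreted and membrane-bound metalloproteases of the ADAM, ADAMTS and MMP families, the protease-like ADAMTSL proteins and the TIMP inhibitors. They were chosen by name: a gene that GENCODE 29 gives as protein-coding was taken when its symbol began with ADAM, or with MMP or TIMP followed by a number. Of 60671 gene IDs in the table, 19903 of them protein-coding, 73 met this rule, with 21 ADAM, 19 ADAMTS, 5 ADAMTSL, 24 MMP and 4 TIMP genes. The ADAM group held ADAMDEC1, and the MMP group held MMP24OS, a gene on the opposite strand of MMP24 that carries the family's name without being a protease. The rule used no measured value, but the families were taken up with results of the same comparison known, so the counts and fold changes below are descriptions and not independent tests.

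RNA was sequenced from SK-N-BE(2), an established human neuroblastoma cell line with amplified MYCN, with 2 libraries of cells that carried a non-targeting control hairpin (shNC) and 2 of cells whose hairpin targets METTL14 (shMETTL14). METTL14 is the RNA-binding partner of METTL3 in the enzyme that places N6-methyladenosine (m6A) on messenger RNA, and the comparison asked what the cells' RNA looks like when it is reduced. According to the study's methods, hairpins were delivered by lentivirus and the cells were selected with puromycin as stable lines, so both groups carry a vector and passed selection. The labels do not say which of the study's METTL14 hairpins the sequenced cells carried, or whether replicates were separate cultures, so the p-values measure only the spread between these libraries.

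METTL14 itself had 753 and 754 counts in the shNC libraries and 303 and 321 in the shMETTL14 libraries. Its level fell by 1.26 on the log2 scale (SE 0.0832, edgeR quasi-likelihood test with Benjamini-Hochberg adjustment, adjusted p 3.6e-11), in the direction of the labels. Between 18925786 and 19886214 counts fell in genes per library. All 12 neuroblastoma markers examined, among them GATA3 and DBH, passed the expression filter, with 2 called higher and 9 lower. The level summed over the 12 was 6059 to 6211 CPM (counts scaled to library size) in shNC and 5971 to 6026 CPM in shMETTL14. MYCN, called higher, weighs heavily in this sum, at a mean of 2616 CPM in shNC and 3173 in shMETTL14. The sum thus does not show the falls of the 9 called lower, such as CHGA from 825 to 570 CPM and HAND2 from 709 to 579 CPM. Of 12 markers of leukocytes, macrophages, endothelium, epithelium, Schwann cells and fibroblasts, 6 passed the filter, 1 was called higher (COL1A2) and 2 lower (EPCAM and COL1A1). Their summed level was 23.2 to 24.5 CPM in shNC and 18.2 to 19.5 CPM in shMETTL14, and CD68, PECAM1, KRT5 and PRRX1 had at most 3 counts in every library. The part of these shifts in the values below was not tested.

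ADAM proteases are transmembrane proteins that cut other membrane proteins close to the cell surface and release their outer parts, a step called shedding, while some family members have lost the catalytic site and act as receptors or adhesion partners. ADAMTS proteases are secreted and bind the matrix, where they trim proteoglycans, procollagens and blood or microfibril proteins, and the ADAMTSL proteins resemble their non-catalytic domains. MMPs digest collagens, gelatin, laminins and many other matrix proteins, either as secreted enzymes or tethered to the membrane. TIMPs bind the active sites of MMPs and of some ADAM and ADAMTS proteases and block them. In neuroblastoma, as in other tumours that arise from migratory neural crest cells, these enzymes are studied for their part in invasion and in the release of growth factors and adhesion molecules.

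The feature that unites the catalytic members is the zinc-binding motif of metzincin proteases, in which histidines hold the zinc ion and a glutamate activates water. The longest coding transcript of each gene in GENCODE 29 was translated and searched for this motif. It was found in 54 of the 73 genes, against 67 of all 19874 protein-coding genes searched (0.337%). By family these were 12 of 21 ADAM, 19 of 19 ADAMTS and 23 of 24 MMP genes, the exception among MMPs being MMP24OS. No ADAMTSL or TIMP gene held it. Variants of the motif with asparagine or serine at its eighth residue were admitted after the genes had been seen: glycine stood there in 49 genes, asparagine in 4 (ADAMTS1, ADAMTS4, ADAMTS9 and ADAMTS15) and serine in 1 (ADAMTS8).

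The 30 coding bases that begin the motif are shown for the catalytic genes whose RNA changed at least 2-fold, and for MMP14 and MMP24 beside their relative MMP15. They are written 5′ to 3′ in the sense direction on GRCh38, with capitals for the codons of its first histidine, its glutamate, its second histidine and its glycine or asparagine. In ADAMTS genes an intron interrupts the stretch, so that the coordinates span it.
ADAM12, chr10:126094062-126094091, minus strand, exon 11 of 23: CATGAGctgggcCACaatttcGGGatgaat
MMP14, chr14:22843283-22843312, plus strand, exon 5 of 10: CACGAGctgggcCATgccctgGGGctcgag
MMP15, chr16:58040563-58040592, plus strand, exon 5 of 10: CATGAGctgggcCACgcgctgGGGctggag
MMP24, chr20:35263817-35263846, plus strand, exon 5 of 9: CATGAGctgggcCACgcgctgGGActggag
ADAMTS1, chr21:26841146-26841867, minus strand, exons 3 and 4 of 9: CATGAAttaggcCACgtgtttAACatgcca
ADAMTS9, chr3:64651151-64654369, minus strand, exons 8 and 9 of 40: CATGAGctgggcCATgtgtttAACatgcct
ADAMTS2, chr5:179154180-179154830, minus strand, exons 7 and 8 of 22: CATGAGactggcCACgtgctgGGCatggag
ADAMTS14, chr10:70732343-70733897, plus strand, exons 7 and 8 of 22: CATGAGaccggcCACgtgctcGGCatggag
ADAMTS10, chr19:8596207-8596323, minus strand, exons 9 and 10 of 25: CACGAGatcgggCACacattcGGCatgaac

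Over these 30 bases MMP15 differed from MMP24 at 1 position and from MMP14 at 4. ADAMTS2 and ADAMTS14, both procollagen N-proteinases, differed at 2 positions, and ADAMTS1 and ADAMTS9, both proteoglycan-cleaving enzymes with the asparagine, differed at 5. ADAM12 differed at 8 positions from MMP15 and at 8 from ADAMTS10. The place of the motif in the gene also followed family: it lay across an exon junction in all 19 ADAMTS genes, in exon 5 in 19 of the 23 MMP genes that held it, and in exon 11 in 8 of the 12 ADAM genes that held it.

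Of the 73 genes, 38 passed the filter on low counts and were tested, namely 11 ADAM, 13 ADAMTS, 2 ADAMTSL, 9 MMP and 3 TIMP genes. Knockdown cells had higher RNA levels for 18 of them and lower levels for 13, at an adjusted p under 0.05 over all genes tested, and 7 were not called. Among all 16309 tested genes, 52.5% were called, 27.2% higher and 25.3% lower. A change of at least 2-fold was found for 5 genes that rose (ADAM12, MMP15, ADAMTS9, ADAM23 and ADAMTS1) and 6 that fell (ADAMTS10, TIMP3, ADAMTS2, ADAMTSL4, ADAMTS14 and ADAMTSL2), where the shares over all genes were 2.80% and 5.99%, or 8.79% together. The median log2 fold change was 0.17 over the 38 tested genes and -0.000953 over all genes, and the median size of change, without its sign, was 0.64 and 0.30. The filter kept genes by their level in either group, so these counts describe the expressed part of the families. Just inside the 2-fold limit lay ADAMTSL2 with a log2 fold change of -1.02, and just outside it MMP24 with 0.94. A further 9 called genes had changes between 1.5- and 2-fold and 11 had smaller ones. In 34 of the 38 tested genes both shMETTL14 libraries lay on 1 side of both shNC libraries, as they did in 75.5% of all tested genes.

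**Figure D1:**
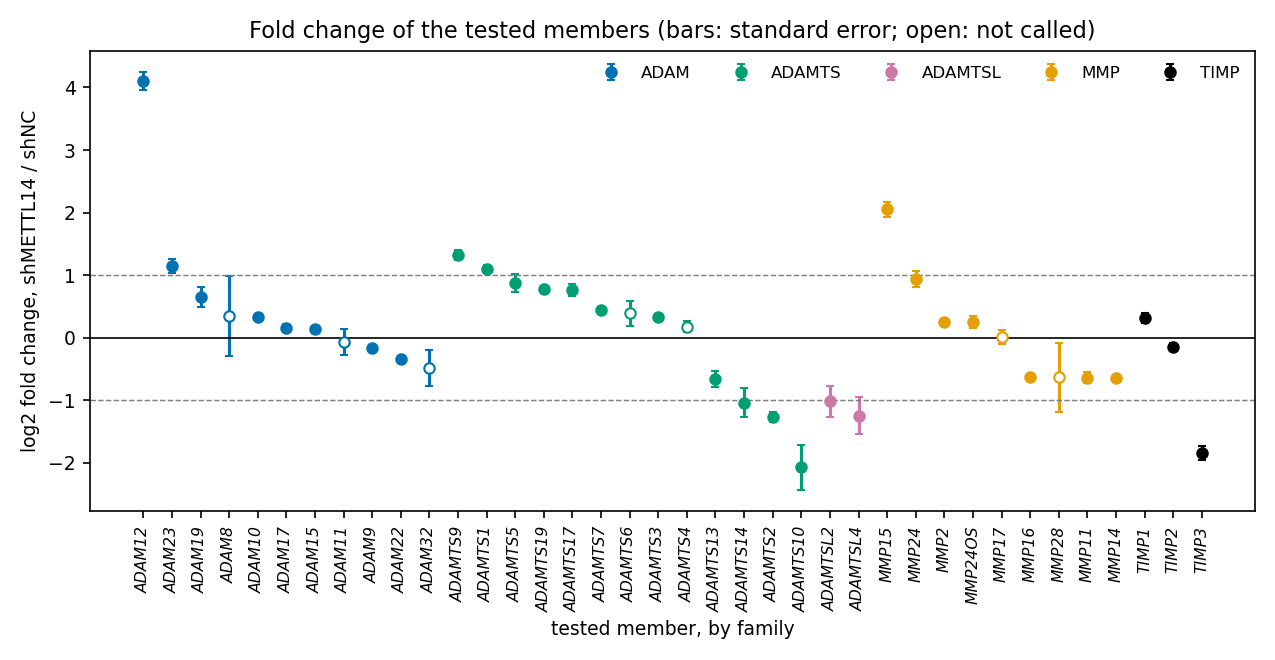
Log2 fold change (shMETTL14 over shNC, y axis) of the 38 tested genes, sorted within family, with bars for the standard error of the edgeR fit, open circles for genes not called and dashed lines at 2-fold. ADAM12 stands at 4.10, above all others, while both ADAMTSL genes and TIMP3 lie below -1.

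ADAM12 rose further than any other tested gene of these families. It encodes meltrin alpha, a protease of placenta, developing muscle and tumours that sheds growth factors such as HB-EGF, and it lies at chr10:126012381-126388455 on the minus strand. The shNC libraries held 46 and 31 counts and the shMETTL14 libraries 725 and 594. Its level thus moved from 1.96 ± 0.487 to 33.9 ± 4.36 CPM (SD, n = 2), a 17.2-fold rise with a log2 fold change of 4.10 (SE 0.149, edgeR adjusted p 2.2e-15). The groups were far apart, and 5 of 16309 genes tested exceeded its log2 fold change. On a scale that allows for annotated exon length, CPM per kb of exon, ADAM12 went from 0.199 to 3.44. That took it from one of the faintest expressed family genes to about the level of MMP17, which stood at 3.52. No exon of another annotated gene overlapped its exons.

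The other tested catalytic ADAMs changed by less than 2-fold or were not called. ADAM10, the sheddase that cuts Notch, APP and cadherins, had 2270 and 2384 counts in shNC and 3042 and 2808 in shMETTL14, a log2 fold change of 0.34 (SE 0.049, edgeR adjusted p 5.0e-06). ADAM17, which releases TNF and ligands of the EGF receptor, had a log2 fold change of 0.16 with an adjusted p of 0.024 by edgeR, and ADAM15 one of 0.13 with 0.043. ADAM9 fell by 0.16 on the log2 scale (edgeR adjusted p 0.0074). DESeq2 called none of these last 3. Their calls were also lost when single libraries were left out: ADAM15 was at 0.063 without shMETTL14 library 1, 0.13 without shNC library 2 and 0.14 without shNC library 1, ADAM17 at 0.13 without shNC library 2 and 0.14 without shMETTL14 library 2, and ADAM9 at -0.15 without either shMETTL14 library. In addition, exons of ADAM17 and ADAM15 overlap those of IAH1 and DCST1, so that reads could have been shared. ADAM19, meltrin beta, which cuts neuregulin, rose from 93 and 92 counts to 153 and 137 (log2 fold change 0.66, SE 0.159, edgeR adjusted p 0.0015). The log2 fold change of ADAM8, a sheddase best known from leukocytes, was 0.35 with an SE of 0.64, and its counts were 11 and 4 in shNC and 15 and 4 in shMETTL14.

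Among the 4 tested ADAMs without the motif, ADAM23 was the gene that changed most. ADAM11, ADAM22 and ADAM23 are neuronal surface proteins without protease activity that bind the secreted LGI proteins at synapses and along axons. For ADAM23, at chr2:206443539-206621130 on the plus strand, 187 and 149 counts in shNC stood against 392 and 347 in shMETTL14. That is a rise from 8.58 ± 1.13 to 19.03 ± 1.41 CPM (SD, n = 2) and a log2 fold change of 1.15 (SE 0.116, edgeR adjusted p 3.1e-08), without overlap of the groups. ADAM22 moved the other way, from 2458 and 2370 counts to 1944 and 1867, with a log2 fold change of -0.33 (SE 0.0448, edgeR adjusted p 2.0e-06). It remained the more abundant of the pair per kb of exon, at 10.1 against 1.34 CPM in shNC and 8.05 against 2.96 in shMETTL14. The log2 fold changes of ADAM11 (-0.07) and of ADAM32 (-0.48), which is mainly known from testis, did not pass the test. LGI1, the ligand of ADAM22 and ADAM23, had 3 and 4 counts in shNC and 46 and 24 in shMETTL14. It was called (edgeR adjusted p 2.1e-05), but it passed the filter only through the shMETTL14 libraries and its shNC counts lie at or just above the 3 counts taken as the floor of detection, so its fitted log2 fold change of 3.28 (SE 0.532) is not a measured size. The other LGI genes were too low to test, with at most 7 counts in a library for LGI2.

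Among the ADAMTS proteases that cleave the large proteoglycans aggrecan and versican, ADAMTS9, ADAMTS1 and ADAMTS5 were higher in the knockdown and ADAMTS4 was not called. ADAMTS9, at chr3:64515654-64688000, had 459 and 544 counts in shNC and 1272 and 1216 in shMETTL14. Its level went from 25.7 ± 3.80 to 64.1 ± 1.26 CPM (SD, n = 2), with a log2 fold change of 1.32 (SE 0.0777, edgeR adjusted p 6.1e-12). ADAMTS1, at chr21:26835747-26845409, went from 607 and 616 counts to 1309 and 1292. These counts correspond to 31.3 ± 1.21 and 67.0 ± 0.196 CPM (SD, n = 2) and a log2 fold change of 1.10 (SE 0.0629, edgeR adjusted p 3.9e-12). In both genes each shMETTL14 library held more than any shNC library by a wide margin. ADAMTS5, the main aggrecanase of cartilage in mice, rose from 108 and 102 counts to 188 and 196 (log2 fold change 0.88, SE 0.141, edgeR adjusted p 1.8e-05). ADAMTS4, the other classical aggrecanase, had a log2 fold change of 0.18 and was not called (edgeR adjusted p 0.089), but it was called at 0.28 without shMETTL14 library 1 (edgeR adjusted p 0.021) and stood at 0.082 without shMETTL14 library 2. The remaining enzymes of this group, ADAMTS8, ADAMTS15 and ADAMTS20, were nearly absent, with at most 4 counts in any library.

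The procollagen N-proteinases, which remove the amino-terminal propeptide of fibrillar procollagens, were split. ADAMTS2, at chr5:179110851-179345430, had 1182 and 1102 counts in shNC and 518 and 427 in shMETTL14. Its level fell from 58.4 ± 1.24 to 24.3 ± 3.02 CPM (SD, n = 2), with a log2 fold change of -1.26 (SE 0.0768, edgeR adjusted p 9.9e-12). ADAMTS14, at chr10:70672803-70762441, fell from 74 and 85 counts to 38 and 39. It stood at a log2 fold change of -1.04 (SE 0.238, edgeR adjusted p 9.3e-04) and at levels of 4.08 ± 0.514 and 1.98 ± 0.0606 CPM (SD, n = 2). Without shNC library 2 the log2 fold change of ADAMTS14 was -0.90, under 2-fold. ADAMTS3, which also takes part in the activation of VEGF-C, rose from 2344 and 2306 counts to 2880 and 2921, giving a log2 fold change of 0.33 (SE 0.0437, edgeR adjusted p 1.6e-06). ADAMTS3 was the most abundant of the 3 in both groups, at 16.6 CPM per kb of exon in shNC, and ADAMTS2 moved from 6.70 to 2.79 on that scale. Type I collagen genes, whose products these enzymes trim, had low counts: COL1A1 fell from 254 and 243 counts to 163 and 191, and COL1A2 had 2 and 6 counts in shNC and 11 and 18 in shMETTL14.

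ADAMTS10, an enzyme linked to fibrillin microfibrils and to Weill-Marchesani syndrome, showed the steepest fall among the tested genes of the families. It lies at chr19:8580242-8610735 and had 43 and 55 counts in shNC and 12 and 11 in shMETTL14. The level fell from 2.51 ± 0.505 to 0.592 ± 0.0292 CPM (SD, n = 2), with a log2 fold change of -2.07 (SE 0.364, edgeR adjusted p 5.5e-05). These are low counts, which shows in the width of the standard error. Its closest relative ADAMTS6 had 68 and 58 counts in shNC and 88 and 76 in shMETTL14, and its log2 fold change of 0.39 was not called (edgeR adjusted p 0.12). ADAMTS13, which cuts von Willebrand factor, fell by 0.66 on the log2 scale (edgeR adjusted p 1.3e-04). ADAMTS17 and ADAMTS19, a closely related pair, rose by 0.76 and 0.78 (edgeR adjusted p 3.2e-07 and 1.5e-10), and ADAMTS7, which cleaves the cartilage protein COMP and has annotated pseudogenes that could take reads, rose by 0.44 (edgeR adjusted p 3.1e-07).

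Both tested ADAMTSL genes fell at least 2-fold with all libraries. Without shNC library 2 the falls were just under 2-fold, at log2 fold changes of -0.99 for ADAMTSL2 and -0.95 for ADAMTSL4. ADAMTSL2 was also at -0.87 without shMETTL14 library 1. ADAMTSL proteins lack a protease domain and bind fibrillin in the matrix. ADAMTSL2, at chr9:133532164-133575519, had 75 and 74 counts in shNC and 33 and 40 in shMETTL14, that is 3.81 ± 0.0719 and 1.88 ± 0.278 CPM (SD, n = 2). That gave a log2 fold change of -1.02 (SE 0.244, edgeR adjusted p 0.0014). ADAMTSL4, at chr1:150549369-150560937, had 49 and 68 counts in shNC and 23 and 26 in shMETTL14, or 3.005 ± 0.773 and 1.26 ± 0.125 CPM (SD, n = 2). With a log2 fold change of -1.24 (SE 0.296, edgeR adjusted p 0.0013) the groups stood apart, but since its exons overlap those of ADAMTSL4-AS1 on the opposite strand, part of these reads may belong to the antisense gene. Groups did not overlap in ADAMTSL2 either.

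**Figure D2:**
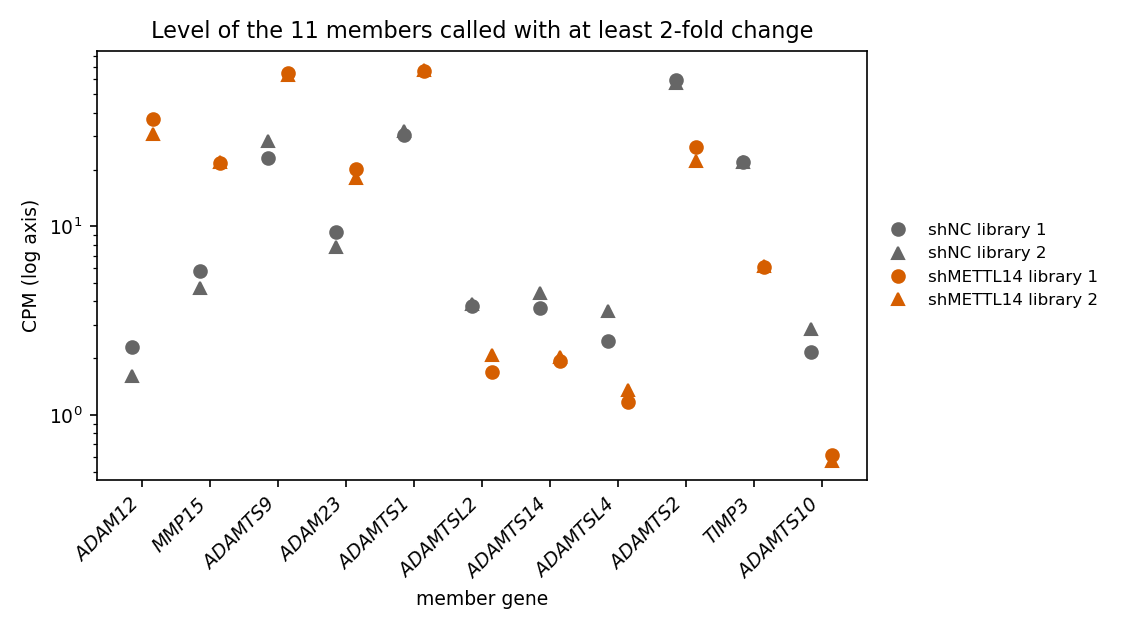
Level in each library (CPM after TMM scaling, log y axis) of the 11 called genes with at least 2-fold change, with grey symbols for shNC, orange for shMETTL14, circles for library 1 and triangles for library 2. In every gene the pairs of symbols are separate, from 1.96 against 33.9 CPM on average for ADAM12 to 2.51 against 0.592 CPM for ADAMTS10. The genes were picked by their calls in these same libraries, so the separation adds no evidence. Groups did not overlap in 75.5% of all tested genes.

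MMP2, gelatinase A, was the most abundant gene of these families in both groups, at 58.3 ± 2.70 and 69.5 ± 0.144 CPM per kb of exon (SD, n = 2). Its counts of 5921 and 5328 in shNC and 6702 and 6607 in shMETTL14 gave a log2 fold change of 0.25 (SE 0.0409, edgeR adjusted p 2.0e-05). MMP9, gelatinase B, was at the other extreme, with 2 and 0 counts in shNC and 3 and 0 in shMETTL14. These counts do not exceed the floor.

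Membrane-type MMPs, which sit on the cell surface and cleave pericellular matrix, moved in opposite directions. MMP15, at chr16:58025566-58046901 on the plus strand, had 115 and 90 counts in shNC and 426 and 421 in shMETTL14. Its level rose 4.16-fold from 5.23 ± 0.756 to 21.8 ± 0.0834 CPM (SD, n = 2), with a log2 fold change of 2.06 (SE 0.121, edgeR adjusted p 5.6e-12). The groups lay far apart, and MMP15 had the largest rise after ADAM12 among the 38 tested genes. MMP24, a membrane-type enzyme of the nervous system that matched MMP15 in all but 1 of the bases shown above, rose from 164 and 131 counts to 263 and 300 (log2 fold change 0.94, SE 0.128, edgeR adjusted p 2.2e-06). MMP24OS, whose exons overlap MMP24 on the opposite strand, had a log2 fold change of 0.25 (edgeR adjusted p 0.032). DESeq2 did not call it, and the value was 0.13 without shNC library 2 and 0.22 without shMETTL14 library 1, neither called. Because the strand setting of the counting is not stated the reads of the pair may be mixed.

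MMP14, the membrane-type enzyme that activates pro-MMP2 in a complex with TIMP2, fell from 2415 and 2269 counts to 1563 and 1422 (log2 fold change -0.64, SE 0.049, edgeR adjusted p 4.1e-10). MMP16, which also activates pro-MMP2, fell from 2425 and 2474 counts to 1613 and 1543, with a log2 fold change of -0.63 (SE 0.0478, edgeR adjusted p 4.0e-10). Despite their falls MMP14 and MMP16 were still above MMP15 per kb of exon in the knockdown, at 17.2 and 6.71 against 4.94 CPM. MMP17, which is anchored by a lipid, had overlapping groups and a log2 fold change of 0.02 (edgeR adjusted p 0.91). MMP11, stromelysin-3, a secreted enzyme that furin activates inside the cell, fell by 0.64 on the log2 scale (SE 0.0866, edgeR adjusted p 2.2e-06), and an overlap of its exons with CHCHD10 could affect this value. MMP28 had 16 and 17 counts in shNC and 3 and 18 in shMETTL14. Its log2 fold change of -0.63 was not called, and it was -2.41 and called without shMETTL14 library 2 and 0.15 without shMETTL14 library 1, so 1 library decides it.

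The collagenases, stromelysins and their relatives that share a cluster on chromosome 11 were at or near the floor. Between positions 102520508 and 102955734 lie MMP7, MMP20, MMP27, MMP8, MMP10, MMP1, MMP3, MMP12 and MMP13, and none of these 9 genes had more than 4 counts in any library. None could be tested, and a difference between the groups was not detectable at this depth.

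TIMP3, the matrix-bound inhibitor that blocks ADAM17 and aggrecanases as well as MMPs, fell, while TIMP1 and TIMP2 changed by less than 1.5-fold. It lies at chr22:32801701-32863043, within SYN3, which is on the opposite strand and with which it shares no exon. Counts were 437 and 419 in shNC and 119 and 119 in shMETTL14. The level fell 3.57-fold from 21.9 ± 0.0309 to 6.13 ± 0.0746 CPM (SD, n = 2), with a log2 fold change of -1.84 (SE 0.111, edgeR adjusted p 9.6e-12). Replicates were almost the same within each group, but an SD from 2 libraries is a poor measure of spread. The SE of 0.111 is the better guide to the precision of this fall.

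TIMP1, a secreted inhibitor with weak action on membrane-type MMPs, rose from 480 and 458 counts to 562 and 602 (log2 fold change 0.32, SE 0.0813, edgeR adjusted p 0.0022). TIMP2 had a log2 fold change of -0.14 (SE 0.0497, edgeR adjusted p 0.021), which DESeq2 did not call and which was -0.068 without shNC library 1 and -0.099 without shMETTL14 library 2, neither called. Its exons overlap those of CEP295NL. TIMP4 had a single count in 1 shMETTL14 library. As a share of the summed TIMP level per kb of exon, TIMP3 made up 10.1% and 10.7% in the shNC libraries and 3.04% and 3.05% in the shMETTL14 libraries. TIMP1 made up 33.2% and 35.1% in shNC and 42.9% and 46.1% in shMETTL14, and TIMP2 56.6% and 54.2% against 54.0% and 50.9%. The summed TIMP level was 47.0 and 44.3 CPM per kb in shNC and 43.5 and 44.0 in shMETTL14.

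**Figure D3:**
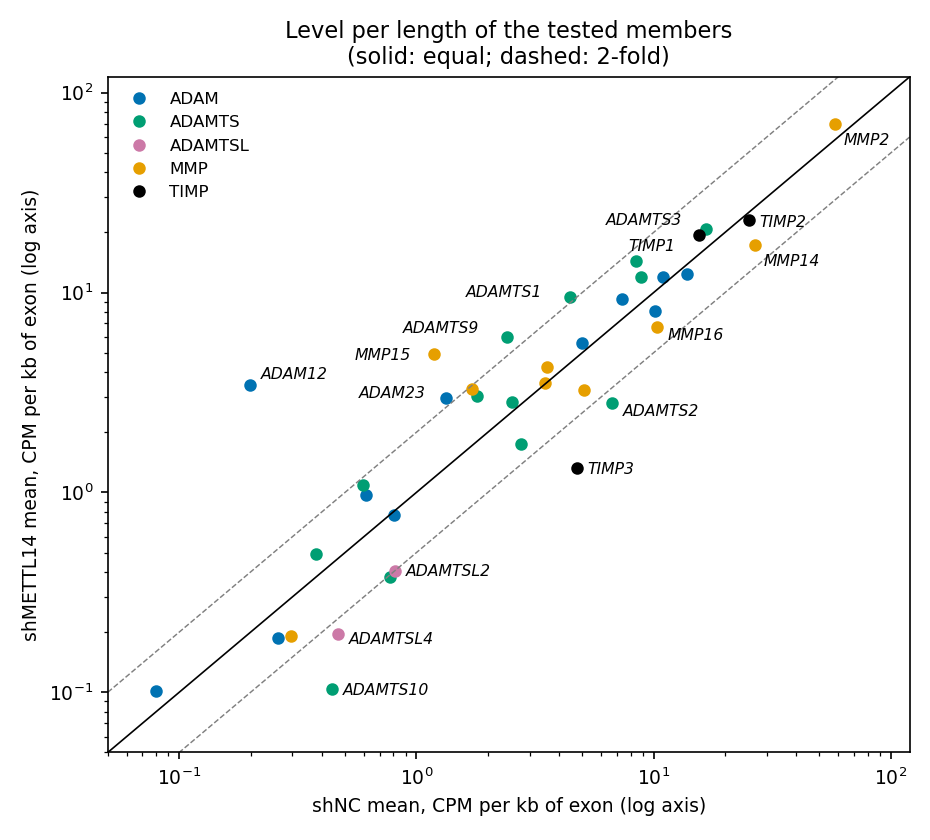
Mean level of each tested gene in shNC (x axis) and shMETTL14 (y axis) in CPM per kb of exon, both on log axes, coloured by family, with a solid line for equal levels and dashed lines for 2-fold. MMP2 lies highest at 58.3 and 69.5, ADAM12 lies far above the line at 0.199 and 3.44, and TIMP3 below it at 4.76 and 1.33.

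Per kb of exon, the shNC cells expressed mainly MMP2, MMP14, TIMP2, ADAMTS3 and TIMP1, in this order, at 58.3, 26.8, 25.3, 16.6 and 15.6 CPM. MMP14 and TIMP2 could not be ordered, since the SD of TIMP2 was 1.87. The order also depends on the length used, here the union of annotated exons. That union was 1541 bases for TIMP1 and 7172 for ADAMTS3, against 892 and 6409 in the longest coding transcript. The order with transcript lengths was not tested. In shMETTL14 the order was MMP2, TIMP2, ADAMTS3, TIMP1 and MMP14, at 69.5, 22.9, 20.8, 19.5 and 17.2 CPM. ADAMTS19 followed at 14.4, and ADAMTS1 and ADAMTS9 stood at 9.48 and 5.999 after 4.43 and 2.41 in shNC. Summed over each family, the level of ADAMTS genes was 56.5 and 57.0 CPM per kb in shNC and 74.5 and 76.2 in shMETTL14. The ADAM sum was 50.7 and 50.8 against 57.5 and 54.6. For the ADAMTSL genes it was 1.26 and 1.54 against 0.586 and 0.687, with no overlap in these 3 families. The TIMP sums given above did not overlap either, but only narrowly, with 44.25 in shNC library 2 against 44.04 in shMETTL14 library 2. Groups did not overlap in 75.5% of all tested genes. The MMP sum overlapped, at 113.6 and 108.7 in shNC and 113.2 and 113.1 in shMETTL14. In bulk RNA, fewer cells expressing a gene and less of its RNA per cell cannot be told apart.

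The 35 untested genes comprised 10 ADAM, 6 ADAMTS, 3 ADAMTSL, 15 MMP genes and TIMP4. No library held more than 12 counts of any of them, 25 had at most 3 counts in every library, and ADAM29, ADAM30, MMP7 and MMP26 had none at all. ADAM28, a sheddase of lymphocytes, had 2 and 0 counts in shNC and 12 and 8 in shMETTL14, and ADAMTS16 had 1 and 4 against 5 and 12. ADAMTSL5 had 4 and 9 counts in shNC and 1 and 2 in shMETTL14, and ADAMTSL1 6 and 7 against 5 and 1. ADAM20 and ADAM21, both known from testis, had 3 and 5 against 9 and 5 and 0 and 7 against 3 and 2. ADAM33 had 1 and 5 counts against 0 and 1, ADAMTS15 4 and 3 against 1 and 0, and MMP3 4 and 2 against 2 and 3. The other untested genes with any count were ADAM2, ADAM7, ADAM18, ADAMDEC1, ADAMTS8, ADAMTS12, ADAMTS18, ADAMTS20, ADAMTSL3, MMP1, MMP8, MMP9, MMP10, MMP12, MMP13, MMP19, MMP20, MMP21, MMP23B, MMP25, MMP27 and TIMP4. MMP23B has a near-identical copy, MMP23A, so its counts are uncertain in any case.

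Some of these genes lie side by side in the genome. ADAMTS1 and ADAMTS5 are neighbours on chromosome 21 with 72.5 kb between them and rose by 1.10 and 0.88 on the log2 scale. ADAMTS13 and ADAMTSL2, 72.8 kb apart on chromosome 9, fell by 0.66 and 1.02. ADAM12 and MMP21 are 237 kb apart on chromosome 10, and MMP21 had 2 and 0 counts in shNC and 0 and 4 in shMETTL14. The sequence GGACT, the commonest form of the m6A consensus, was counted on the sense strand of each gene's longest coding transcript; the word cannot overlap itself. Every one of the 73 genes held at least 1, as did 91.2% of the 12800 tested coding genes. Its median density was 0.950 per kb in the 18 genes that rose, 0.954 in the 13 that fell, 1.52 in the 7 not called, 1.14 in the 35 not tested and 0.938 in all tested coding genes. A match describes the letters of a transcript and not a methylated site.

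Genes that activate, inhibit or serve as substrates of these enzymes were taken from 6 lists with 91 distinct genes, of which 63 were tested, 24 called higher and 20 lower. Among all tested genes, 27.2% were called higher and 25.3% lower. In the list on activation and cell-surface control, 9 of 17 tested genes rose and 2 fell, with a median log2 fold change of 0.25. PLAT, the tissue plasminogen activator, rose from 258 and 286 counts to 832 and 849 (log2 fold change 1.64, SE 0.0865, edgeR adjusted p 9.8e-13). PLAUR, the urokinase receptor, rose from 111 and 78 counts to 165 and 177 (log2 fold change 0.87, SE 0.163, edgeR adjusted p 1.2e-04). TSPAN10, a tetraspanin that escorts ADAM10 to the surface, fell from 16 and 23 counts to 5 and 7 (fitted log2 fold change -1.67, edgeR adjusted p 0.0093). TSPAN10 passed the filter only through the shNC libraries, so the size of this fall is uncertain. The more abundant escorts of the same group went the other way: TSPAN15, TSPAN17 and TSPAN14 rose by log2 fold changes of 0.76, 0.59 and 0.25 (edgeR adjusted p 3.8e-08, 6.4e-07 and 0.0022), and TSPAN5 and TSPAN33, at 0.17 and 0.20, were not called. These 5 were named after their values were seen.

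Of 5 tested genes for other inhibitors and for clearance, 3 fell and 1 rose, with a median of -0.84, which is the value of SPOCK2. RECK, an inhibitor of MMPs, had a log2 fold change of -0.19 and was not called (edgeR adjusted p 0.096). The median thus does not describe inhibitors of these proteases as a group. LRP1, the endocytic receptor that removes MMPs, ADAMTS proteases and TIMP3 from the cell surface, fell from 2073 and 1934 counts to 976 and 927 (log2 fold change -1.06, SE 0.0517, edgeR adjusted p 2.4e-13). SPOCK1 and SPOCK2, matrix proteoglycans of the testican family, fell by 1.01 and 0.84 on the log2 scale. CST3, cystatin C, which inhibits cysteine proteases and so is no direct inhibitor of the enzymes described here, rose by 0.43.

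Among membrane proteins that ADAMs shed, 8 of 19 tested genes rose and 4 fell, and the median was 0.08. HBEGF, a growth factor released by shedding, rose from 27 and 44 counts to 87 and 74 (log2 fold change 1.19, SE 0.261, edgeR adjusted p 6.0e-04). L1CAM, a neural adhesion molecule, rose by 1.01 (SE 0.0476, edgeR adjusted p 1.7e-13). EPHB2, a receptor for ephrins, fell by 1.42 and SDC4, a cell-surface proteoglycan, by 0.95 (edgeR adjusted p 1.3e-04 and 3.0e-08).

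Of 18 tested genes for matrix substrates, 5 rose and 9 fell, with a median of -0.08. TNC, tenascin-C, rose from 524 and 471 counts to 1957 and 1893 (log2 fold change 1.96, SE 0.0595, edgeR adjusted p 1.4e-16). LTBP1, a carrier of latent TGF-beta, rose by 1.504, and COL1A2 by a fitted 1.83, at the low counts given above and having passed the filter only through the shMETTL14 libraries (edgeR adjusted p 3.4e-08 and 0.017). LAMA1, a laminin chain of basement membranes, went from 31 and 32 counts to 1 and 12, with a fitted log2 fold change of -2.24 (SE 0.536, edgeR adjusted p 0.0013). LAMA1 passed the filter only through the shNC libraries, and shMETTL14 library 1 lay below the floor of 3 counts, so -2.24 is not a measured size. Among the astacins and their enhancers, a further branch of metalloproteases that includes procollagen C-proteinase, 0 of 3 tested genes rose and 2 fell by small amounts, PCOLCE2 by 0.23 and PCOLCE by 0.12 (edgeR adjusted p 0.030 and 0.015). Of all tested genes 52.5% were called, and whether any list differs from this share, or from the shares in each direction, was not tested.

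**Figure D4:**
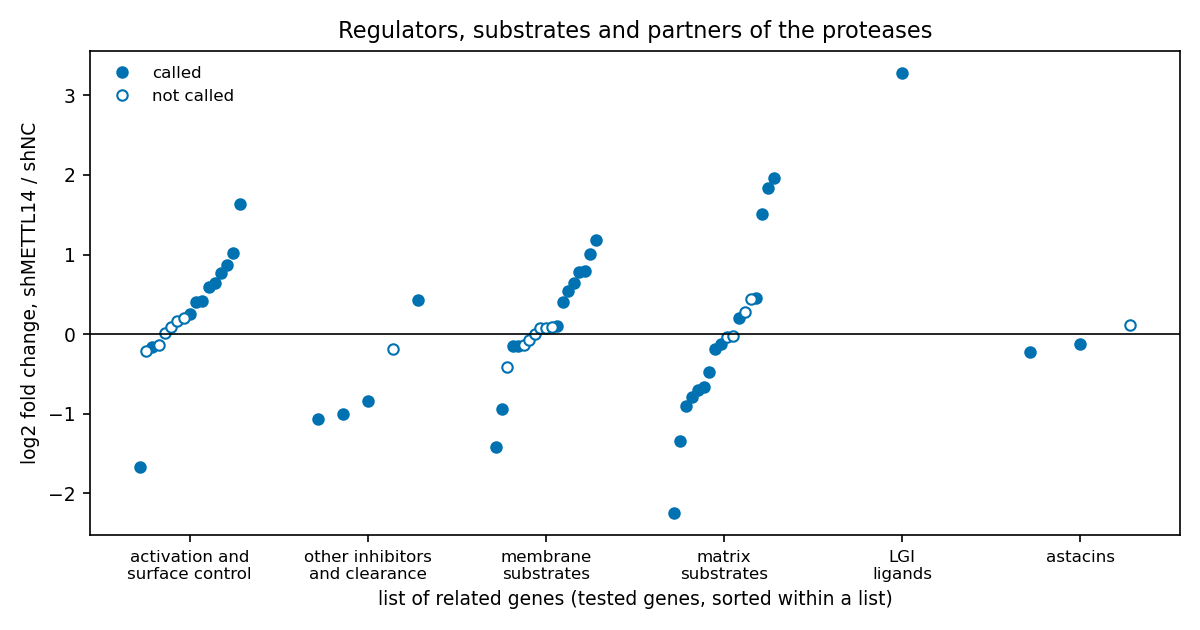
Log2 fold change (shMETTL14 over shNC, y axis) of every tested gene in 6 lists of regulators, partners and substrates of the proteases (x axis), sorted within a list, with filled circles for called genes and open circles for the rest. Every list with more than 3 tested genes holds called genes on both sides of 0, and LGI1 is the only tested LGI gene, at a fitted 3.28 that rests on 3 and 4 counts in shNC.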

How the data were processed

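Paired reads came from an Illumina NovaSeq. The authors deposited raw, unnormalized counts per Ensembl gene ID in 1 table. The submitters' processing notes name HISAT2 2.1.0, StringTie 1.3.6, HTSeq 0.13.5, edgeR and the build GRCh38, while the annotation release and strand setting are not given in the sources used here. The 5 lines naming no gene (19.1% to 19.9% of counts) were left out. Of 60671 IDs, 58453 were found in GENCODE 29, which gave gene types, positions and transcripts. Symbols came mainly from a separate list of gene names, and 60647 IDs had one.

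Counts were tested with edgeR 4.0.16 in R 4.3.3 (quasi-likelihood F-test, TMM, filterByExpr defaults, group as the only term). Benjamini-Hochberg adjustment ran over all 16309 genes tested, and adjusted p-values under 0.05 were called. Standard errors, derived from the F statistic, cover counting error and the spread of these libraries only. CPM values were TMM scaled, and CPM per kb divides them by the union of a gene's exons. This union can be longer than the transcripts the cells express, so orders, shares and sums across genes on this scale are approximate. With 2 libraries per group an exact permutation test reaches no two-sided p below 0.333, so calls rest on the variance model shared across genes (biological coefficient of variation 3.45%). Mean chi-square per gene was 2.8 and 2.3 between replicates, above sampling noise, and 34.1 to 35.2 between groups. On simulated counts 65.6% of changed genes were recovered at a log2 fold change of 0.5 (16201 genes tested) and 85.3% at 1 (16195 genes). Only 195 and 197 of the tested genes were changed there, and all genes shared the same dispersion. In the data 52.5% of genes were called, so these rates need not hold for them.

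Members and lists were chosen with earlier results of these data known. By rule, counts were given for METTL14 and members changed at least 2-fold, fold changes for other tested members, and up to 4 called genes with the largest change per list; 1 gene that this rule takes is not reported here, and further counts were added after the values were seen. Alternatives were other scalings and filters, DESeq2 1.42.0, a replicate block and leaving out each library. No protein table was used, so the motif was searched in translated transcripts.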

Additional observations from a re-analysis of the deposited data

How the results depend on the processing

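Alternatives comprised RLE, upper quartile and library-size scaling, a filter of 10 counts in every library or none, DESeq2, a replicate block and leaving out each library. Across all genes the number called moved from 8561 to 5546 with DESeq2, which is 32.9% of the 16837 genes to which DESeq2 gave an adjusted p. The number called with at least 2-fold change moved from 1433 to 913 with DESeq2 and to 930 with 10 counts in every library. Of the family genes, 31 were called, 26 with DESeq2 and 28 to 31 otherwise, and the 11 changed at least 2-fold were called in every alternative. Their number with at least 2-fold change was 8 to 13 when 1 library was left out, 12 without a filter and 20 with a limit of 1.5-fold. ADAM15 was called in 3 of 11 alternatives, ADAM17 and MMP24OS in 6, TIMP2 in 7 and ADAM9 in 8. ADAMTS4 and MMP28, not called otherwise, were called without shMETTL14 replicate 1 and replicate 2, respectively. The related genes called ranged from 34 to 46 around 44, and the log2 fold change of METTL14 from -1.33 to -1.21.

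Among METTL14 and the tested family genes, only 4 that were not called changed direction under these alternatives. MMP17 stood at -0.050 under upper quartile scaling, at -0.028 when only library size was used and at -0.00091 with 10 counts in every library. Leaving out 1 library at a time moved MMP17 between -0.088 (without shMETTL14 replicate 2) and 0.13, with -0.042 without shNC replicate 1, and ADAM8 between -0.86 (without shMETTL14 replicate 1) and 1.20, with -0.17 without shNC replicate 2. It moved ADAM11 between -0.16 and 0.038 (without shNC replicate 1) and MMP28 between -2.41 (without shMETTL14 replicate 2) and 0.15 (without shMETTL14 replicate 1). The cause was not tested. Same-numbered libraries shared little (r = 0.05 and rho = 0.04 across 11559 genes, which are not independent replicates), so the numbers were not taken to pair the samples. With the number as a replicate block, 8926 genes were called in all, 1454 with at least 2-fold change, 31 and 11 of the family, 46 related genes, and METTL14 at -1.26. Upper quartile scaling moved the median of all genes by -0.07 on the log2 scale. Depth limits the 35 untested genes and those near 50 counts, such as ADAMTS10 and ADAMTSL4.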

Other observations

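Another 26 gene IDs carried a name of these families without being protein-coding and were left out of the counts above. Of the antisense genes, MMP25-AS1 had 58 and 49 counts in shNC and 28 and 23 in shMETTL14, with a log2 fold change of -1.06 (edgeR adjusted p 0.0040). ADAMTS19-AS1 went from 159 and 122 counts to 112 and 96, with a log2 fold change of -0.42 (edgeR adjusted p 0.037), while ADAMTS19 itself rose. ADAMTS9-AS2 had 41 and 39 counts against 65 and 43 and ADAMTSL4-AS1 31 and 25 against 36 and 33, and neither was called (edgeR adjusted p 0.18 and 0.44). The ADAMTS7 pseudogene ADAMTS7P3 had 29 and 27 counts in shNC and 23 and 8 in shMETTL14 and was not called (edgeR adjusted p 0.10). ADAMTS16-DT had 0 counts in both shNC libraries and 8 and 1 in the shMETTL14 libraries, too few to test. These names were chosen after their values were seen. Exons of MMP25-AS1, ADAMTS19-AS1 and ADAMTSL4-AS1 overlap in part those of their partners on the opposite strand. Without a known strand setting, reads in these shared stretches cannot be told apart. ADAMTS9-AS2 and ADAMTS16-DT share no annotated exon stretch with ADAMTS9 and ADAMTS16.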
